A study of Mus musculus with 6 samples.

Results

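The cytosolic ribosomal protein genes are the subject here, read from the RNA of stage 0 iNKT cells. They were found by symbol, as the rows named Rpl or Rps followed by a number, together with Rplp0, Rplp1, Rplp2 and Rpsa, without the rows whose symbols hold -ps and without the Rps6k kinases. The rule took 89 of the 48397 rows of the count table, 53 for the large and 36 for the small subunit. No expression value entered this rule, but the members were chosen with earlier results of these data known. Of the 89 genes, 84 had enough reads to be tested (50 large and 34 small subunit genes), among 12312 genes tested in all.

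Stage 0 is the earliest stage of invariant natural killer T (iNKT) cells, just after positive selection in the thymus. RNA was sequenced from BALB/c mice and from SKG mice, which carry a hypomorphic mutation of the TCR-proximal kinase Zap70 on the BALB/c background, to ask how weaker TCR signaling alters gene expression at this stage. Each genotype had 3 libraries, and each library came from about 1000 cells sorted from 3 pooled thymi of mice aged 8 to 10 weeks. Cells of both genotypes bound the PBS57-CD1d tetramer and were CD44-, CD24+, CD69+, CD4 low or negative and CD8-. A replicate is thus a pool of mice.

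Each cytosolic ribosome joins a small subunit, which decodes the mRNA, to a large subunit, which forms the peptide bonds and holds the exit tunnel and the lateral stalk. The proteins are made in near equal amounts, and their mRNAs are among the most abundant of a growing cell. Many of these mRNAs begin with a terminal oligopyrimidine (TOP) tract, a C followed by a run of pyrimidines, through which the mTOR pathway tunes their translation. Thymocytes enlarge after TCR engagement, and loss of the large subunit gene Rpl22 is known to block αβ T cell development.

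All 89 symbols matched the GENCODE annotation of GRCm38, which lists 84 as protein-coding and 5 as pseudogenes (Rpl6l, Rps12l1, Rps3a2, Rps3a3 and Rps4l). A tract of at least 5 bases stood at the annotated 5′ end of 11 of the 84 protein-coding members (13.1%), against 442 of 21088 other protein-coding genes (2.1%). The first 20 bases of 5 of these transcripts are given to show the feature, which was not used to choose the genes, with the tract in capitals.
Rpl32 (chr6:115808728-115808747, minus strand): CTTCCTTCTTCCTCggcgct
Rps2 (chr17:24720110-24720129, plus strand): CTTCTTCTTCTTCgggagaa
Rpl4 (chr9:64173375-64173394, plus strand): CTTTTCCTgtgggagcagcc
Rpl30 (chr15:34443203-34443222, minus strand): CCTTTCTCgctccccggcca
Rpl37 (chr15:5116645-5116664, plus strand): CTCTTCCggtctctttggcc
An annotated end can lie away from the start that a cell uses, so the share is one of these letters at these positions.

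RefSeq promoters, covering 250 bases before to 50 bases after the start, were at hand for 64 of the 89 genes. The ETS motif CCGGAAG, on either strand, lay in 26 of the 64 (40.6%). It lay in 13.1% of 15993 other protein-coding genes and in 9.93% of all 27025 genes with a promoter entry. AAGATGG, a motif of YY1, lay in 15.6% of the 64, in 7.24% of the other protein-coding genes and in 7.28% of all. CCAAT and TATAAA were in 31.2% and 10.9% of the ribosomal protein promoters and in 41.1% and 15.7% of all. Other protein-coding genes had them in 42.1% and 14.4%. Stretches of 100 bases upstream of the annotated starts are given for Rps6, Rps21 and Rpl15, genes with the ETS motif, which stands in capitals (GRCm38, 5′ to 3′ on the strand of the gene).
Rps6 (chr4:86857413-86857512, minus strand): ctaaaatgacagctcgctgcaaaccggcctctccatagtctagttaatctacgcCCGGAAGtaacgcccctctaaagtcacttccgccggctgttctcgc
Rps21 (chr2:180257277-180257376, plus strand): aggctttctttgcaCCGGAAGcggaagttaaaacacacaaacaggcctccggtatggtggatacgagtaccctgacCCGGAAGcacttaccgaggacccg
Rpl15 (chr14:18271030-18271129, minus strand): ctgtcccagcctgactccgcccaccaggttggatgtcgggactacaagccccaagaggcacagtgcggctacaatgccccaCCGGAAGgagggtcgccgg
A match of these letters is a description and not a binding site.

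Total reads on genes ranged from 37176544 to 43115544 per library, and between 10835 and 14791 genes had at least 10 reads. Genes of the mitochondrial genome took from 0.367% to 0.991% of the reads. All 7 T cell markers had at least 10 reads in every library, with summed levels of 6845 to 9413 CPM (a gene's reads scaled to a common library total) in BALB/c and 6923 to 8921 CPM in SKG. The 4 stage 0 markers Cd24a, Cd69, Egr2 and Zbtb16 summed to 1674 to 2033 CPM in BALB/c and 943 to 1388 CPM in SKG, with most of these reads on Egr2. Of the pair used in the sort, Cd69 had 12858 to 16010 reads in BALB/c and 6120 to 9024 in SKG, whereas Cd24a had 271 to 2161 and 1284 to 3443, with overlap. The part of these differences in the ribosomal protein values was not tested. The 6 markers of double-positive thymocytes summed to 63.3 to 350 CPM in BALB/c and 64.5 to 190 CPM in SKG, and the 7 myeloid markers to 95.7 to 239 CPM and 70.4 to 288 CPM. The 6 B cell markers stayed at or below 8.38 CPM in sum. The 6 erythroid markers reached 69.7 CPM in 1 BALB/c library and at most 1.57 CPM in the others, with Alas2 at 0, and the 5 thymic epithelial markers summed to 10 to 86.9 CPM with Krt5 and Psmb11 at 0. A detail of the library kit could not be settled, since the labels name SMART-Seq v4 with 18 cycles and the methods of the study name the SEQR kit with 8 cycles of preamplification.

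Ribosomal protein genes took a small share of the counted reads, which was lower on average in SKG but overlapped between the genotypes. Only reads with a mapping quality of at least 10 had been counted, and these genes share much sequence with other genes. The share is thus one of counted reads and not of the mRNA in the cells. BALB/c replicates 1 to 3 had 1.05%, 0.825% and 0.962% of all reads on the 89 genes. SKG replicates 1 to 3 had 0.693%, 0.653% and 0.879%. BALB/c replicate 1 was the highest and SKG replicate 2 the lowest, and SKG replicate 3 lay above BALB/c replicate 2. The BALB/c mean was 0.946% ± 0.114 (SD, n = 3). The SKG mean was 0.742% ± 0.121 (SD, n = 3). The difference of -0.205 percentage points did not pass a two-sided exact permutation test (p = 0.2), and with 3 libraries against 3 this test cannot go below 0.1. Without BALB/c replicate 1 the difference was -0.152 points, and without SKG replicate 3 it was -0.274 points. From 257968 to 436529 reads stood behind each share, so the exact Clopper-Pearson 95% intervals were narrow, for example 1.049% to 1.055% for the first BALB/c pool and 0.65% to 0.655% for the second SKG pool. These intervals cover counting error only, since PCR copies cannot be told from separate molecules. In bulk RNA, fewer cells of a type and less of this RNA per cell cannot be told apart.

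**Figure D1:**
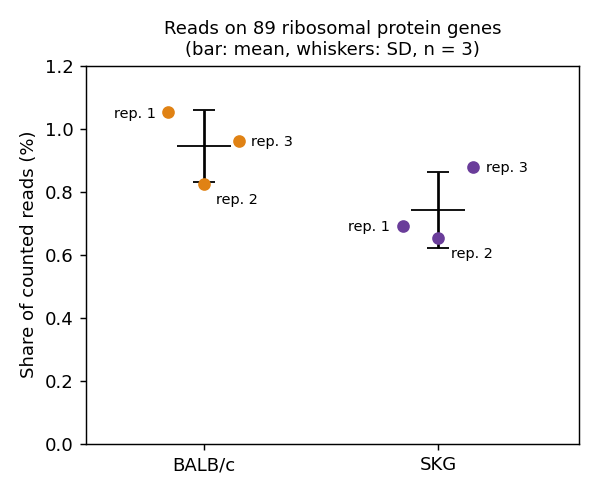
Share of all reads counted on genes that fell on the 89 ribosomal protein genes, in percent, for the 3 BALB/c libraries (orange) and the 3 SKG libraries (purple), with the mean as a line and the SD as whiskers. The means are 0.946% and 0.742%, and SKG replicate 3 (0.879%) lies above BALB/c replicate 2 (0.825%).

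The highest share within each genotype was in a library that also had the highest summed levels of double-positive thymocyte and myeloid markers. BALB/c replicate 1 had 350 CPM of double-positive thymocyte markers and 239 CPM of myeloid markers, and SKG replicate 3 had 190 CPM and 288 CPM. The other 4 libraries had 63.3 to 132 CPM and 70.4 to 97.2 CPM of these markers. BALB/c replicate 3 had the lowest double-positive sum (63.3 CPM) but a share of 0.962%. Single markers did not all follow the sums. Rag1 and Ptcra had 34 and 0 reads in SKG replicate 3, against 379 and 152 in SKG replicate 2. Cd8a, Cd8b1, Rag2 and Arpp21 were highest of SKG in replicate 3. Most myeloid reads lay on Cst3 and Lyz2, and Csf1r and Itgam had at most 3 and 8. Whether the reads of these markers bear on the ribosomal protein share was not tested.

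Gene by gene, most ribosomal protein genes were at a lower level in SKG, by a modest amount in most, and none passed the threshold. Levels are CPM after scaling by the TMM factors, and a call needed a false discovery rate under 0.1 together with a 1.5-fold difference or more. By edgeR's quasi-likelihood test with Benjamini-Hochberg adjustment, 0 of the 84 genes were called, with a lowest adjusted p of 0.83, and 0% of all genes tested were called. The log2 fold change (SKG over BALB/c) was below 0 for 76 of the 84 genes (90.5%), against 51% of all genes tested. Its median was -0.42, a fold of 0.75, with the middle 50% of the genes between -0.53 and -0.19, whereas the median of all genes tested was -0.02. At an unadjusted p under 0.05, 7 of the 84 genes were lower in SKG and 0 were higher, where 2.38% of all genes tested were lower and 3.07% were higher. In 21 members (25%), every SKG library lay below every BALB/c library, against 7.12% of all genes tested, and in 0 members did every SKG library lie above, against 6.77%. The genes are not independent of each other, so these counts describe the same 6 libraries many times over.

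**Figure D2:**
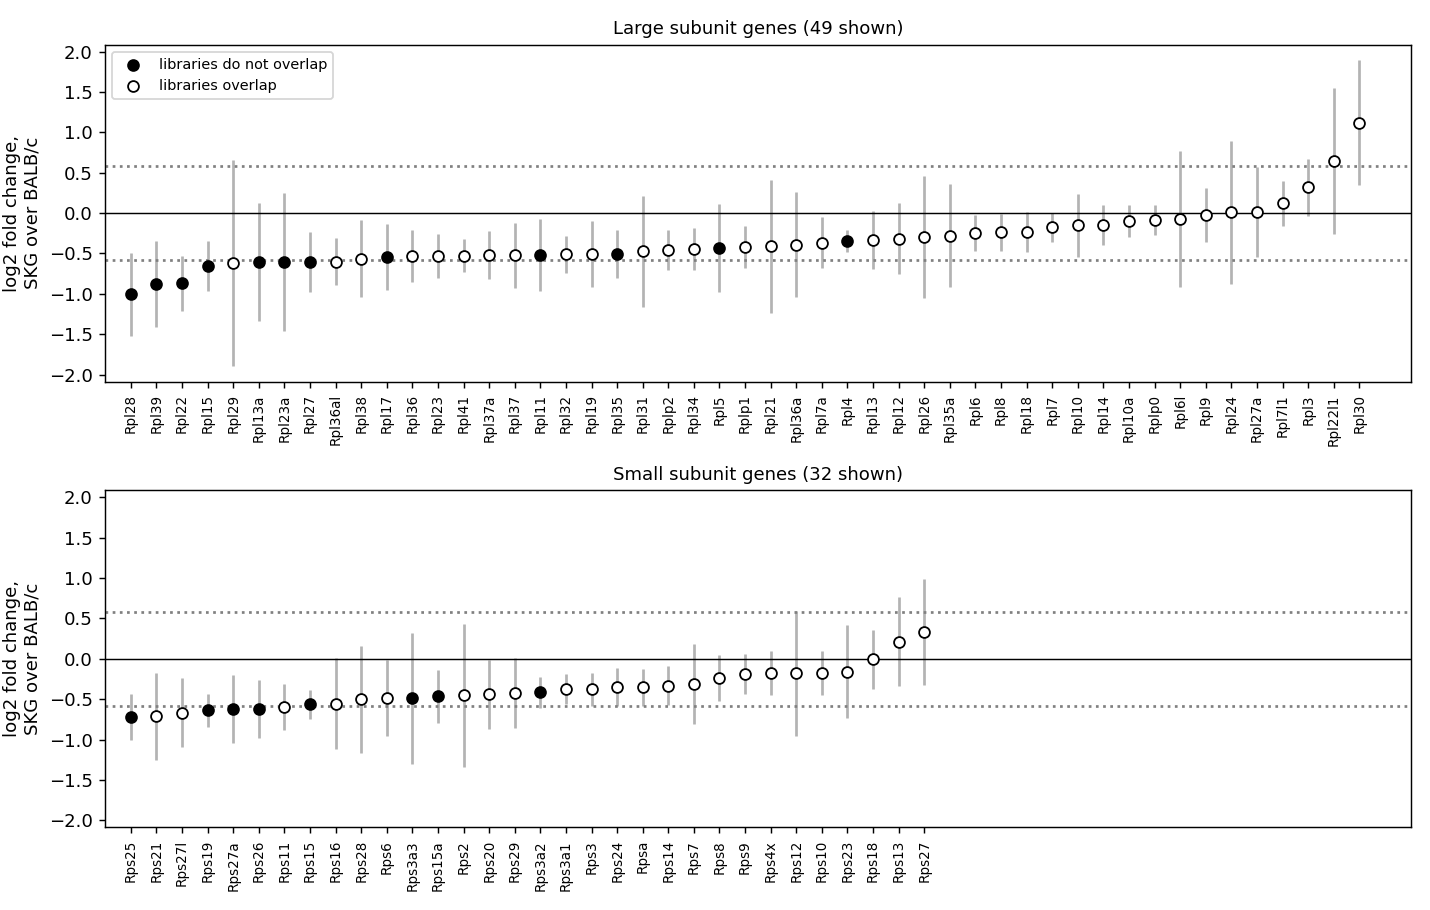
Log2 fold change (SKG over BALB/c) of 49 large subunit genes (top) and 32 small subunit genes (bottom) tested with edgeR, in ascending order, with the standard error as a vertical line and dotted lines at a fold change of 1.5 in either direction. Of the 81 genes shown 73 lie below 0, and filled points mark the 20 genes whose SKG libraries all lie below the BALB/c libraries.

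In both subunits most genes had values below 0. Among large subunit genes 44 of 50 had a log2 fold change below 0, with a median of -0.42, and among small subunit genes 32 of 34 did, with a median of -0.39. Of the ribosomal protein reads, large subunit genes took 57.1%, 58.2% and 57.7% in BALB/c and 59.1%, 59.8% and 57% in SKG. The genotypes overlapped, and the difference of 0.975 percentage points did not pass the two-sided exact permutation test (p = 0.4). It was 0.408 points without SKG replicate 2 and 1.8 points without SKG replicate 3. A fold change of at least 1.5 without regard to the test was seen in 16 members lower and 2 members higher in SKG, and in 18.6% and 19.7% of all genes tested. The 16 with the lower level had large standard errors in part, since Rpl13a, Rpl23a and Rpl29 were at mean levels of 7.91, 2.51 and 1.51 CPM.

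Of the small subunit genes, Rps15, Rps19 and Rps25 had the lowest unadjusted p. Rps15 encodes a protein of the head of the subunit (chr10:80292453-80294114 in GRCm38). It was at 193, 149 and 190 CPM in BALB/c and at 119, 112 and 129 CPM in SKG, so all SKG libraries were below all BALB/c libraries. Its level was 1.48-fold higher in BALB/c (log2 fold change -0.56, SE 0.18, unadjusted p = 0.0169 and adjusted p = 0.83 by edgeR). Rps19 (chr7:24884371-24889806) is needed to mature the small subunit rRNA and is the gene most often mutated in Diamond-Blackfan anaemia. It was at 169, 124 and 170 CPM in BALB/c and at 99.5, 89.1 and 109 CPM in SKG, again without overlap. The log2 fold change was -0.64 with an SE of 0.20 and an adjusted p of 0.83 by edgeR. Rps25 (chr9:44407139-44410427), which is used in initiation at some internal ribosome entry sites, was at 104, 61.8 and 89.2 CPM in BALB/c and at 47.1, 47.1 and 60.4 CPM in SKG. The lowest BALB/c library and the highest SKG library were thus close, and the log2 fold change was -0.72 (SE 0.29).

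Among large subunit genes, Rpl4 (chr9:64173375-64178666), whose protein reaches into the exit tunnel, had the most reads of all members. It was at 1255, 1062 and 999 CPM in BALB/c and at 886, 807 and 912 CPM in SKG, without overlap, with a log2 fold change of -0.35 (SE 0.13, adjusted p = 0.871 by edgeR). Rpl4 begins with one of the tracts printed above. Rpl41 (chr10:128548114-128549305), which encodes a very short basic peptide, was at 236, 163 and 221 CPM in BALB/c and at 138, 126 and 165 CPM in SKG. Here SKG replicate 3 lay just above BALB/c replicate 2, and the log2 fold change was -0.53 (SE 0.21).

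Rpl22 (chr4:152325742-152334071), the gene needed for αβ T cells, was at 69.2, 44.4 and 56.5 CPM in BALB/c and at 31.8, 36 and 25.4 CPM in SKG. All SKG libraries were lower, and its level was 1.83-fold higher in BALB/c (log2 fold change -0.87, SE 0.34, unadjusted p = 0.0395 and adjusted p = 0.877 by edgeR). The largest fold change toward a lower level in SKG was that of Rpl28 (chr7:4792874-4795066), another protein of the large subunit. Rpl28 was at 24.5, 24.9 and 32.5 CPM in BALB/c and at 12, 11.1 and 17.7 CPM in SKG, so the libraries did not overlap. Its log2 fold change was -1.01 with an SE of 0.51, and its adjusted p was 0.953 by edgeR. With DESeq2 without shrinkage of the fold changes, Rpl28 was the only member called (log2 fold change -0.98, SE 0.32, adjusted p = 0.0894), where 1.34% of the 14365 genes with an adjusted p were called lower in SKG. With DESeq2 and shrunken fold changes, and with limma-voom, 0 members were called, while 13 members were lower and 0 higher at an unadjusted p under 0.05 in DESeq2 without shrinkage. Of all genes with an adjusted p in that fit, 4.77% were lower and 5.25% higher at this p.

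Genes tied to growth control in other ways had values in the same direction. Rpl5 and Rpl11 bind the 5S rRNA and, when ribosome assembly fails, the p53 inhibitor Mdm2. Rpl5 was at 17, 19.8 and 18 CPM in BALB/c and at 14.8, 13.7 and 12 CPM in SKG, and Rpl11 was at 32.9, 26 and 28.6 CPM and at 20.2, 16.8 and 24.2 CPM. In both genes the genotypes did not overlap, but the standard errors (0.55 and 0.44) were larger than or close to the log2 fold changes (-0.43 and -0.52). These standard errors rest in part on a spread that edgeR shares across genes. The SDs of log2 CPM within a genotype were 0.13 for Rpl5 and 0.22 for Rpl11. Rps6, whose protein is phosphorylated by the S6 kinases downstream of mTOR, was at 32, 21.4 and 29.4 CPM in BALB/c and at 17.7, 17.1 and 24.3 CPM in SKG. SKG replicate 3 exceeded BALB/c replicate 2, and the log2 fold change was -0.49 (SE 0.47).

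The stalk genes Rplp0, Rplp1 and Rplp2, whose proteins recruit the elongation factors, were unequal in their shift and overlapped between genotypes. Rplp0 was at 546, 450 and 430 CPM in BALB/c and at 387, 413 and 546 CPM in SKG (log2 fold change -0.08, SE 0.18). Rplp1 was at 147, 92.9 and 128 CPM and at 83.7, 78.5 and 113 CPM (log2 fold change -0.42), and Rplp2 at 126, 82.9 and 115 CPM and at 67.6, 75 and 92.9 CPM (log2 fold change -0.46). The sign for Rplp0 depended on single libraries, as its log2 fold change was 0.033 without BALB/c replicate 1 and 0.0062 without SKG replicate 1. Rpsa, a small subunit gene also known as the laminin receptor precursor, was at 808, 618 and 529 CPM in BALB/c and at 462, 426 and 645 CPM in SKG (log2 fold change -0.35, SE 0.23). For Rpsa the log2 fold change was -0.16 without BALB/c replicate 1 and -0.54 without SKG replicate 3. SKG replicate 3 was again the highest of its genotype for Rplp0, Rplp1, Rplp2 and Rpsa.

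Only 8 of the 84 genes had a log2 fold change above 0, and in each the genotypes overlapped. Rpl30 had the largest, 1.12 with an SE of 0.78. It was at 13.1, 7.63 and 28.5 CPM in BALB/c and at 18.6, 20.4 and 68.1 CPM in SKG, so that much of the difference lay in SKG replicate 3. Without that library its log2 fold change was 0.26, and without BALB/c replicate 3 it was 1.78. Next came Rpl22l1 (0.65), Rps27 (0.33), Rpl3 (0.32), Rps13 (0.21) and Rpl7l1 (0.12), and Rpl24 and Rpl27a were both at 0.01. With 1 library left out at a time, Rpl22l1 ranged from 0.28 to 1.73, Rps27 from 0.12 to 0.57 and Rpl3 from 0.12 to 0.52. Rps13, Rpl7l1, Rpl24 and Rpl27a, the other 4, each had a value below 0 in at least 1 of these fits. Of the 76 genes below 0, 9 had a value above 0 in at least 1.

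The members moved together from library to library, including between libraries of the same genotype. After subtracting each gene's mean over the 6 libraries, the median of the 84 log2 levels was 0.36, 0.01 and 0.30 in BALB/c replicates 1 to 3 and -0.30, -0.40 and 0.06 in SKG replicates 1 to 3. BALB/c replicate 2 and SKG replicate 3 thus differed little from each other, and the shift between genotypes came from the other 4 libraries. The highest level of a member lay in BALB/c replicate 1 for 41 genes, in BALB/c replicate 3 for 22, in SKG replicate 3 for 13, in BALB/c replicate 2 for 6, in SKG replicate 1 for 2 and in SKG replicate 2 for 0. The lowest level lay in SKG replicate 2 for 47 genes. Other genes with transcripts under 1000 nt had a like order of libraries, with BALB/c replicates 1 and 3 exchanged and medians of 0.24, -0.05 and 0.27 in BALB/c and -0.08, -0.16 and 0.05 in SKG. The median log2 fold change of the members was -0.33 without BALB/c replicate 1 and -0.51 without BALB/c replicate 2.

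**Figure D3:**
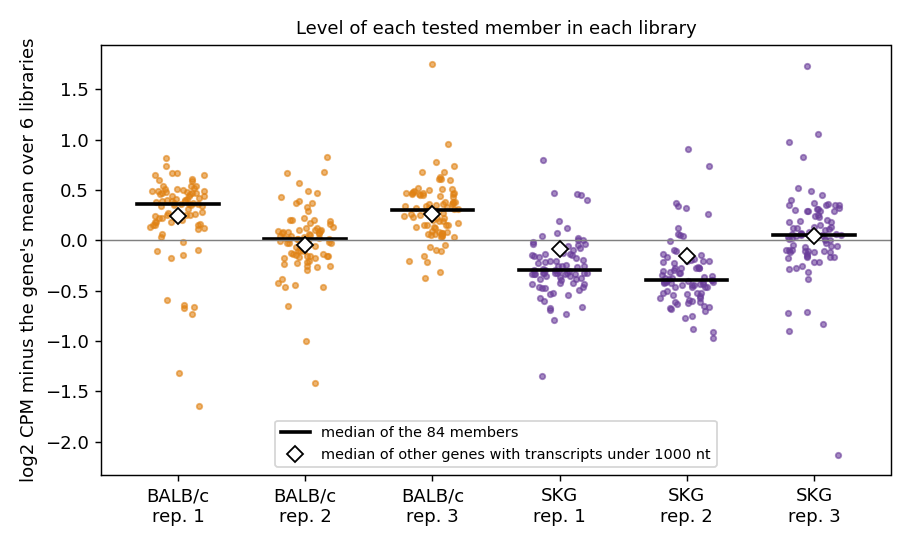
Log2 CPM of each of the 84 tested ribosomal protein genes in each library, less the mean of the gene over the 6 libraries. Lines mark the median of the members (0.36, 0.01 and 0.30 in BALB/c, -0.30, -0.40 and 0.06 in SKG), and diamonds mark the median of other genes with transcripts under 1000 nt, which span a narrower range, from -0.16 to 0.27.

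Ribosomal protein mRNAs are short, and short transcripts in general had log2 fold changes below 0 more often than long ones. Over all genes tested, 65.0% of the 1826 with a transcript under 1000 nt had a log2 fold change below 0, with a median of -0.23, against 48.4% and a median of 0.02 for the 10111 longer ones. Among 343 genes that were not members, had such a short transcript and lay between 19.9 and 112 CPM, the middle 50% of the members' levels, 244 (71.1%) were below 0. Their median was -0.23, and 15.2% of them had all SKG libraries below all BALB/c libraries, beside 25% of the members. Genes at the same level without regard to length had a median of -0.02, with 51.0% below 0. The part of transcript length in the members' shift was not tested, and these values stand beside the median of -0.42 for the members.

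The members varied less between replicates than most genes. The median SD of log2 CPM within a genotype was 0.31 for the 84 members, 0.64 for all genes tested, 0.54 for genes at the same level and 0.37 for the short genes at that level. The steadiest were Rpl10a and Rps3a3, each with an SD of 0.11, and Rpl5 with 0.13. Rpl10a, a gene of the L1 stalk, was at 88.8, 98.1 and 83.2 CPM in BALB/c and at 86.9, 77.6 and 88.3 CPM in SKG. The least steady were Rpl29 (SD 1.69), Rpl22l1 (1.03) and Rpl30 (1.00). Rpl29 was at 0.291, 1.64 and 3.54 CPM in BALB/c and at 1.41, 1.96 and 0.194 CPM in SKG, a spread of more than its difference between genotypes. Its log2 fold change of -0.62 became 0.31 without BALB/c replicate 3.

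Levels per length differed widely, although the proteins are used in near equal amounts. Mean levels reached from 2.12 CPM per kb of transcript for Rpl29 to 642 CPM per kb for Rpl4, with Rps9 at 605, Rpl8 at 407 and Rpl32 at 372 CPM per kb. Lengths were those of a single annotated transcript per gene, such as 3706 nt for Rps20, so levels per kb and shared words depend on that choice. The 10 members with the most reads took 47.5% to 53.4% of the ribosomal protein reads. Of the 89 genes, 83 had at least 10 reads and 46 had at least 1000 reads in every library. Mammalian ribosomal protein genes have processed copies in the genome, and only reads with a mapping quality of at least 10 had been counted. For the annotated transcripts, a median of 50.7% of a member's 50-base words were also found in another annotated gene, and only 3 members shared none. Rps27, with 98.6% shared, was at 34.2 CPM per kb. Members with under 50% of words shared had a median of 85.8 CPM per kb (40 genes), and members with more had 52.0 CPM per kb (44 genes). Over the 84 genes, which share their libraries, the Spearman correlation of the shared percentage with the level per kb was -0.226, and with the log2 fold change 0.347. The 40 genes with under 50% shared had a median log2 fold change of -0.46, with 37 below 0, and held all 7 genes with an unadjusted p under 0.05. The other 44 had a median of -0.34, with 39 below 0. Counts of members with a high percentage are thus uncertain as levels of the gene named.

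**Figure D4:**
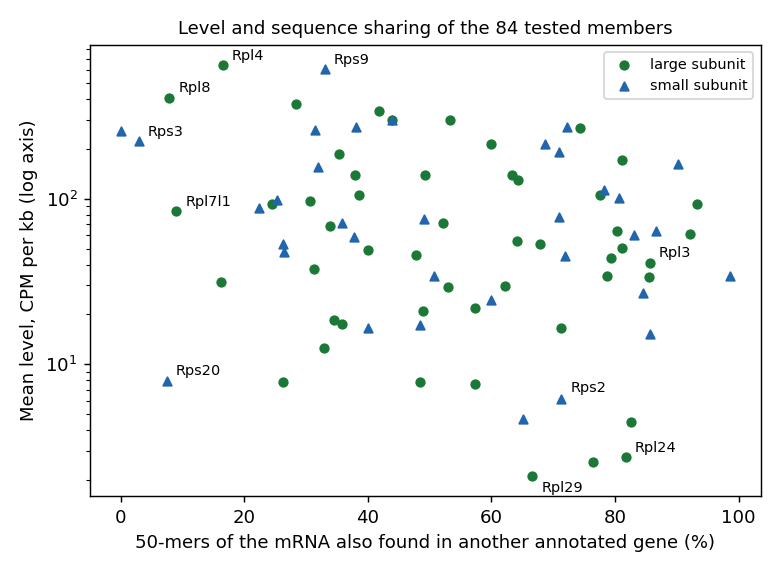
Mean level in CPM per kb of transcript (log axis) of the 84 tested members against the percentage of the 50-base words of their mRNA that another annotated gene also holds, for large subunit genes (circles) and small subunit genes (triangles). Levels run from 2.12 (Rpl29) to 642 CPM per kb (Rpl4), and the genes with the lowest levels, Rpl29, Rpl24 and Rps2 among them, mostly lie to the right.

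Rps3a1 and Rps3a2 are a pair of near-identical sequence, both among the members. Rps3a1 lies on chromosome 3 and Rps3a2, annotated as a pseudogene, on chromosome 14, and their coding sequences differ by 4 substitutions in 792 bases. A window of 60 bases around 1 of these is given, with the base that differs in capitals (transcript bases 319 to 378 of Rps3a1 and 186 to 245 of Rps3a2).
Rps3a1: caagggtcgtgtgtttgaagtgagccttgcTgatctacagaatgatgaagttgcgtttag
Rps3a2: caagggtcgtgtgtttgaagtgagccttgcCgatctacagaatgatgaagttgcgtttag
The reads on Rps3a2 relative to Rps3a1 were 0.694, 0.725 and 0.662 in BALB/c and 0.684, 0.665 and 0.671 in SKG, a nearly fixed ratio. Whether Rps3a2 is itself transcribed or holds reads of Rps3a1 was not tested. Rps3a1 was at 238, 183 and 211 CPM in BALB/c and at 147, 152 and 189 CPM in SKG, and Rps3a2 at 165, 133 and 140 CPM and at 100.2, 101 and 127 CPM. The coding gene Rps2 had 117 to 402 reads per library, and its copy Rps2-ps10, outside the rule, had 973 to 1932, where the same was not tested.

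Some ribosomal protein genes have a paralogue, and 4 such pairs were compared as the log2 ratio of reads within a library, with a two-sided exact permutation test and adjustment over the 4. Rps27l, a p53 target, relative to Rps27 gave 2.79, 2.09 and 2.07 in BALB/c and 1.27, 1.14 and 1.6 in SKG. The genotypes did not overlap, and the difference was -0.98 with the smallest p this exact test can give (p = 0.1, adjusted 0.4). Rps27l was at 72.3, 31.3 and 57.2 CPM in BALB/c and at 31.9, 26.6 and 42.8 CPM in SKG. Rps27 was at 10.4, 7.33 and 13.6 CPM and at 13.2, 12.1 and 14.1 CPM, but 98.6% of its words are shared with other genes, so the ratio may hold reads of other genes. Rpl22l1 relative to Rpl22 gave -4.13, -3.17 and -1.55 in BALB/c and -0.88, -2.30 and -0.37 in SKG. The difference was 1.76, with overlap (exact permutation p = 0.2, adjusted 0.4). Rpl22l1 was at 3.95, 4.93 and 19.3 CPM in BALB/c and at 17.3, 7.33 and 19.6 CPM in SKG, so BALB/c replicate 3 was as high as the highest SKG libraries.

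For the other 2 pairs the genotypes overlapped. Rpl7l1, which acts in the nucleolus, relative to Rpl7 gave a difference of 0.25 (exact permutation p = 0.5, adjusted 0.667), and Rpl36al relative to Rpl36a a difference of -0.10 (exact permutation p = 0.9, adjusted 0.9). The sign of the latter turned without BALB/c replicate 3 (0.02) and without SKG replicate 3 (0.17). Rpl7l1 was at 198, 240 and 192 CPM in BALB/c and at 141, 271 and 273 CPM in SKG, and Rpl7 at 407, 338 and 359 CPM and at 266, 318 and 392 CPM. Rpl36al was at 110, 62.2 and 91.7 CPM in BALB/c and at 55.9, 51 and 67.4 CPM in SKG, and Rpl36a at 24.3, 14.6 and 16.3 CPM and at 11.9, 8.23 and 21.9 CPM. The 5 members that were not tested had few or no reads in most libraries. Rpl10l, a gene of the testis, and the pseudogene Rps12l1 had 0 reads in every library. Rpl3l, a gene of striated muscle, had 2 reads in SKG replicate 1 alone. Rpl39l had 84 reads (2.16 CPM) in SKG replicate 2, 3 in BALB/c replicate 3 and 0 elsewhere, and Rps4l had 141 reads (3.63 CPM) in SKG replicate 2 and 0 elsewhere.

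**Figure D5:**
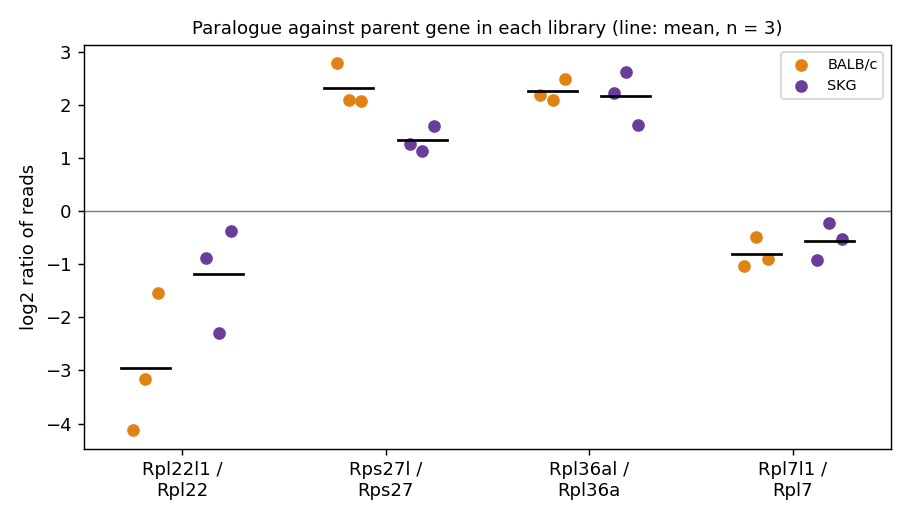
Log2 ratio of reads on 4 paralogues to reads on their parent genes in each library, BALB/c in orange and SKG in purple, with the mean of 3 libraries as a line. The genotypes overlap for Rpl22l1, Rpl36al and Rpl7l1, and for Rps27l relative to Rps27 the SKG libraries (1.14 to 1.6) lie below the BALB/c libraries (2.07 to 2.79).

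Members with a tract at the annotated start had a median log2 fold change of -0.47 (11 genes, 10 below 0), and those without had -0.38 (68 genes, 61 below 0), where the annotated pseudogenes and the 2 members on chromosome 18 did not enter. Members with the ETS motif in the promoter had a median of -0.49 (25 genes, 24 below 0), and those with a promoter entry but no such motif had -0.34 (36 genes, 31 below 0). These medians lie within the range of single members and were not tested against each other. The lengths of the transcripts and the shared words were not held equal between these groups.

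Most genes of 3 further lists (ribosomal proteins outside the rule, other TOP mRNAs and mitochondrial ribosomal proteins) had log2 fold changes below 0, where 51% of all genes tested and 65.0% of those with a transcript under 1000 nt did. By edgeR 0 of them were called. Fau, which encodes a ribosomal protein fused to a ubiquitin-like protein, was at 3.55 to 9.21 CPM with a log2 fold change of -0.21 (SE 0.84). Rack1, a scaffold on the small subunit, was at 660, 527 and 487 CPM in BALB/c and at 393, 397 and 606 CPM in SKG, with overlap (log2 fold change -0.26, SE 0.22). Of 15 other mRNAs known for a TOP tract, 14 were below 0, with a median of -0.32. Of the 15, 4 had an unadjusted p under 0.05 (Eef1b2, Naca, Eef1a1 and Eef1g) and 5 had every SKG library below every BALB/c library. Over all genes tested, 2.38% were lower in SKG at this p, and 7.12% had every SKG library below every BALB/c library. Eef1b2, an exchange factor of elongation, was at 213, 146 and 173 CPM in BALB/c and at 110, 109 and 132 CPM in SKG, with a log2 fold change of -0.60 (SE 0.20, adjusted p = 0.834 by edgeR). Of 80 tested genes of the mitochondrial ribosome, built apart from the cytosolic one, 62 were below 0, with a median of -0.23. Of the 80, 0 were called and 3 were lower at an unadjusted p under 0.05, beside 2.38% of all genes tested. All of these lists were read in the same 6 libraries as the members.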

How the data were processed

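PolyA+ RNA of sorted stage 0 iNKT cells was amplified by template switching and sequenced as single-end reads of 50 nt. The authors aligned them to GRCm38 with HISAT2 2.1.0 and counted exonic reads with featureCounts (Subread 1.4.4), ignoring strand and requiring a mapping quality of 10 or more. The deposited counts are whole numbers per gene, neither normalized nor filtered. A second deposited table, which holds the comparison of the authors made with DESeq2 1.14.1, was not used. The titles of the samples spell SKG as SGK.

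In R 4.3.3, edgeR 4.0.16 was used with filterByExpr by genotype, TMM factors and the quasi-likelihood test on all 6 libraries, with Benjamini-Hochberg adjustment over 12312 genes. Standard errors were obtained from the size of the log2 fold change over the root of the F statistic. Log2 CPM used a prior count of 2 and ratios a pseudocount of 0.5 reads. DESeq2 1.42.0 and limma 3.58.1 (voom) served as alternatives. The p-values set the difference between genotypes against the spread between pools of mice. In the edgeR, DESeq2 and limma fits, part of that spread is estimated from all genes together and not from each gene alone. The edgeR standard error of a steady member can thus exceed its own spread, as for Rps3a3 (SD 0.11, SE 0.81). The fits, other than those with a block or with a library left out, were run on simulated data in which the changed genes were known. These data had less spread between libraries than the real ones (common coefficient of variation 91.8%) and larger changes than those of the members. The simulation thus cannot say how the fits perform for changes of the size seen here.

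Positions and transcripts were taken from GENCODE vM21 (GRCm38), and promoters from RefSeq (GRCm38.p6). The members and the lists were chosen with earlier results of these data known. Genes were named if their unadjusted p was under 0.05, if they were listed paralogues, their parents, stalk genes, Rpsa, Rps19, Rpl5, Rpl11 or Rps6, or if they were among the 3 highest in mean CPM, or the 3 largest or smallest in SD. Rpl28, Rps9, Rpl8, Rpl32, Rps2, Rps3a1, Rps3a2, the genes of the sequences printed and all other members were named after their values had been seen. A few genes are counted but not reported here by name. Correlations of residuals between libraries of the same title number were -0.092, -0.0096 and -0.145, and of the same library number -0.038 and 0.0029, so the numbers were not taken to pair the libraries.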

Additional observations from a re-analysis of the deposited data

Results flagged for a closer look

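Reads on rows whose symbols hold -ps, processed copies of ribosomal protein genes left out by the rule, came to 40530 over the 6 libraries. They amounted to 1.87% to 2.12% of the reads on the members in each library, and no control sample exists for them. Rps2-ps10 had the most, 7947 reads in all. These rows entered no main comparison of the members. An alternative added them to the members for the share of reads, and the difference between genotypes kept its direction. Rps2-ps10 is also set beside Rps2 above.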

How the results depend on the processing

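The count of 0 ribosomal protein genes called held under every alternative with one exception, DESeq2 without shrinkage, which called 1 (Rpl28). Over all genes tested that fit called 370, DESeq2 with shrunken fold changes 229 and edgeR without a filter on low counts 2, against 0 otherwise. The median log2 fold change of the members stayed below 0, from -0.34 with DESeq2 and shrunken fold changes to -0.46 with library sizes alone, and from -0.33 to -0.51 when 1 library was left out. DESeq2 without shrinkage placed the median of all genes at 0.12 and that of the members at -0.39. The percentage of members below 0 lay between 84.5% and 95.2%, an alternative added after the data had been seen, and was 85.7% without BALB/c replicate 1 and 95.2% without SKG replicate 3. With the replicate number of the titles as a block the median was -0.41, and with the library number -0.33, with 0 members called, and the block changed no other call. The numbers do not pair the libraries. With 1 library left out, the difference in the share of reads ran from -0.152 to -0.274 percentage points, that of the large subunit share from 0.408 to 1.8 (the lowest without SKG replicate 2, the highest without SKG replicate 3), that of Rpl22l1 to Rpl22 from 1.17 to 2.46 and that of Rps27l to Rps27 from -0.75 to -1.11. The log2 ratio of Rpl36al to Rpl36a changed sign without BALB/c replicate 3 (0.02) or SKG replicate 3, in a range of -0.33 to 0.17. With 1 library left out, a check of all 84 members added after the data had been seen, the sign turned in at least 1 fit for 13 genes, among them Rpl10, Rpl9, Rpl27a, Rps13, Rps12, Rpl6l, Rpl14, Rpl24 and Rps18 and, among the genes chosen by the naming rule, Rpl7l1 (-0.015 to 0.37, and -0.012 without SKG replicate 3), Rplp0 (-0.24 to 0.033) and Rpl29 (-1.16 to 0.31). The cause was not tested. The other 119 values of the main results kept their direction or, for counts of called genes, their value. For the shares and ratios only the direction was checked, since their exact permutation p cannot go below 0.1. The 442 values of single genes and counts include medians over all genes tested and over short genes, which were not checked for direction. The median of all genes tested changed sign, from -0.016 in the main fit to 0.0018 with DESeq2 size factors and 0.094 without a filter on low counts. The rest of the 442 kept their direction or side of the threshold. Depth did not limit most members, but members under 10 CPM, such as Rpl13a, Rpl24 and Rpl29, had standard errors from 0.73 to 1.28 on the log2 scale.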
